A study of Homo sapiens with 12 samples.

Results

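The expression of 9 genes of tyrosine kinase signalling was examined in 2 human acute myeloid leukemia cell lines incubated with Jiyuan oridonin A (JOA). The genes were chosen by symbol from the 20030 rows of a table of FPKM, a level per exon length and per library size. They are 6 SRC family kinases (FGR, LYN, FYN, SRC, YES1 and LCK), the kinases SYK and BTK, and the membrane adaptor SCIMP, and all 9 were found. JOA is an ent-kaurene diterpenoid. MOLM-13 and THP-1 are established lines with a rearranged MLL gene. The 12 libraries comprised MOLM-13 control, MOLM-13 with 0.5 µM JOA, THP-1 control and THP-1 with 2 µM JOA, with 3 libraries in each group. By the sample labels all cells were incubated for 48 h, and the controls received DMSO. A figure legend of the study gives a longer incubation for these experiments, and the time of the labels is used here. Because each line had its own dose, the line and the dose cannot be told apart. The source labels do not say whether the replicates were separate cultures, so p-values measure the spread between these libraries, which may be technical.

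SRC family kinases sit on the inner face of the plasma membrane and phosphorylate the tyrosines of activating motifs (ITAMs) in receptor tails. SYK then docks on the phosphorylated ITAM, and BTK, a TEC family kinase, acts downstream by phosphorylating phospholipase C gamma. LYN and FGR are well known from myeloid cells, whereas LCK is best known from T cells. The same kinases also phosphorylate inhibitory motifs (ITIMs), which recruit phosphatases such as SHP-1. SCIMP is a transmembrane adaptor that scaffolds LYN and other signalling proteins in antigen-presenting cells.

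RefSeq promoter windows were held for 6 of the 9 genes (FGR, FYN, YES1, LCK, SYK and BTK). The 250 bases upstream of the RefSeq start nearest to the gene start are shown for 3 of these genes, 5′ to 3′ in the direction of the gene. FGR had the widest spread of any tested member in a group (CV 66.2% in THP-1 controls) and BTK the narrowest in each group. SYK was higher with JOA in every pair of THP-1, as were FGR, LYN and YES1. Capitals mark GAGGAA on either strand, a core that the myeloid factor PU.1 is known to bind.
FGR, chr1:27635186-27635435, minus strand: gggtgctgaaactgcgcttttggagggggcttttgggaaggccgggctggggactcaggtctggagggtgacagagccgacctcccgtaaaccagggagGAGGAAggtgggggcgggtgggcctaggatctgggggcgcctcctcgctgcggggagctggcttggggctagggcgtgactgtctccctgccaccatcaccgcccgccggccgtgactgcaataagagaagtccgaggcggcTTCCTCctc
SYK, chr9:90801569-90801818, plus strand: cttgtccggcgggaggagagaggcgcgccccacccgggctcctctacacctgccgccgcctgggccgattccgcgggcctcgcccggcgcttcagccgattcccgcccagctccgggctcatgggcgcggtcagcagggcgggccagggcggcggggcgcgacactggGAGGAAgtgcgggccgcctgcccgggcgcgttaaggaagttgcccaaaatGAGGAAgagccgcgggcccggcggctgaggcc
BTK, chrX:101390797-101391046, minus strand: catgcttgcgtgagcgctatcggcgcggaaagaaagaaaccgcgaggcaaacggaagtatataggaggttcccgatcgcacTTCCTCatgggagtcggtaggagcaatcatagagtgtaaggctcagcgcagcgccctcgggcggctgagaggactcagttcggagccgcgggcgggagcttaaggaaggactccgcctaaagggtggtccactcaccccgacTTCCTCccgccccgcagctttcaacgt
GAGGAA was found at 2 places in each of the FGR, SYK and BTK windows and at none in YES1, FYN or LCK. The 3 windows shown are thus those with a match, and a link between the motif and the values was not tested. It was present in 23.6% of all 35116 windows of the same length. In the FGR window the matches lay at positions -151 to -146 and -9 to -4 from the start. Windows at other RefSeq starts of FGR and BTK, not shown, held 0 matches, and those of SYK held 0 and 1. GGGCGG, the core of GC boxes, was found in the windows of FGR, SYK, BTK, YES1 and FYN and in 42.6% of all windows. TGACNNNGC, which antioxidant response elements hold, was found in those of FGR and SYK and in 10.9% of all windows, and TATAAA was found in none of the 6 and in 10.7% of all windows. These 4 motifs were chosen with the values of the genes known, both strands were searched, and a match is only a match of letters. SPI1, the gene of PU.1, was at 50.7 to 63.3 FPKM in MOLM-13 libraries and at 38.3 to 49.8 FPKM in THP-1 libraries.

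By GENCODE gene models on GRCh38, all 9 genes are protein coding. FGR spans chr1:27612064-27635277 on the minus strand. SYK spans chr9:90801787-90898549 on the plus strand. BTK spans chrX:101349447-101390796 on the minus strand. YES1 spans chr18:721588-812546 on the minus strand. LYN spans chr8:55879813-56014168, FYN chr6:111660332-111873452, SRC chr20:37344685-37406050, LCK chr1:32251239-32286165 and SCIMP chr17:5208961-5234860. The antisense genes annotated over YES1 and SCIMP had no row of their own in the table, and the libraries were stranded.

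Both lines were checked against lineage markers. In every group, 9 of 10 myeloid markers had a mean of at least 1 FPKM, and CD14 was below 1 FPKM throughout. Among 6 T cell markers only CD3D passed that level, at 1.53 to 3.79 FPKM in MOLM-13, with CD3G at 0 in all libraries. Among 6 B cell markers only CD79B did, at 7.85 to 9.72 FPKM in THP-1. Genome-wide correlations of log2 values between libraries of a line were at least 0.987. Read depth behind these FPKM values is not known, and errors are the spread between libraries.

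**Figure D1:**
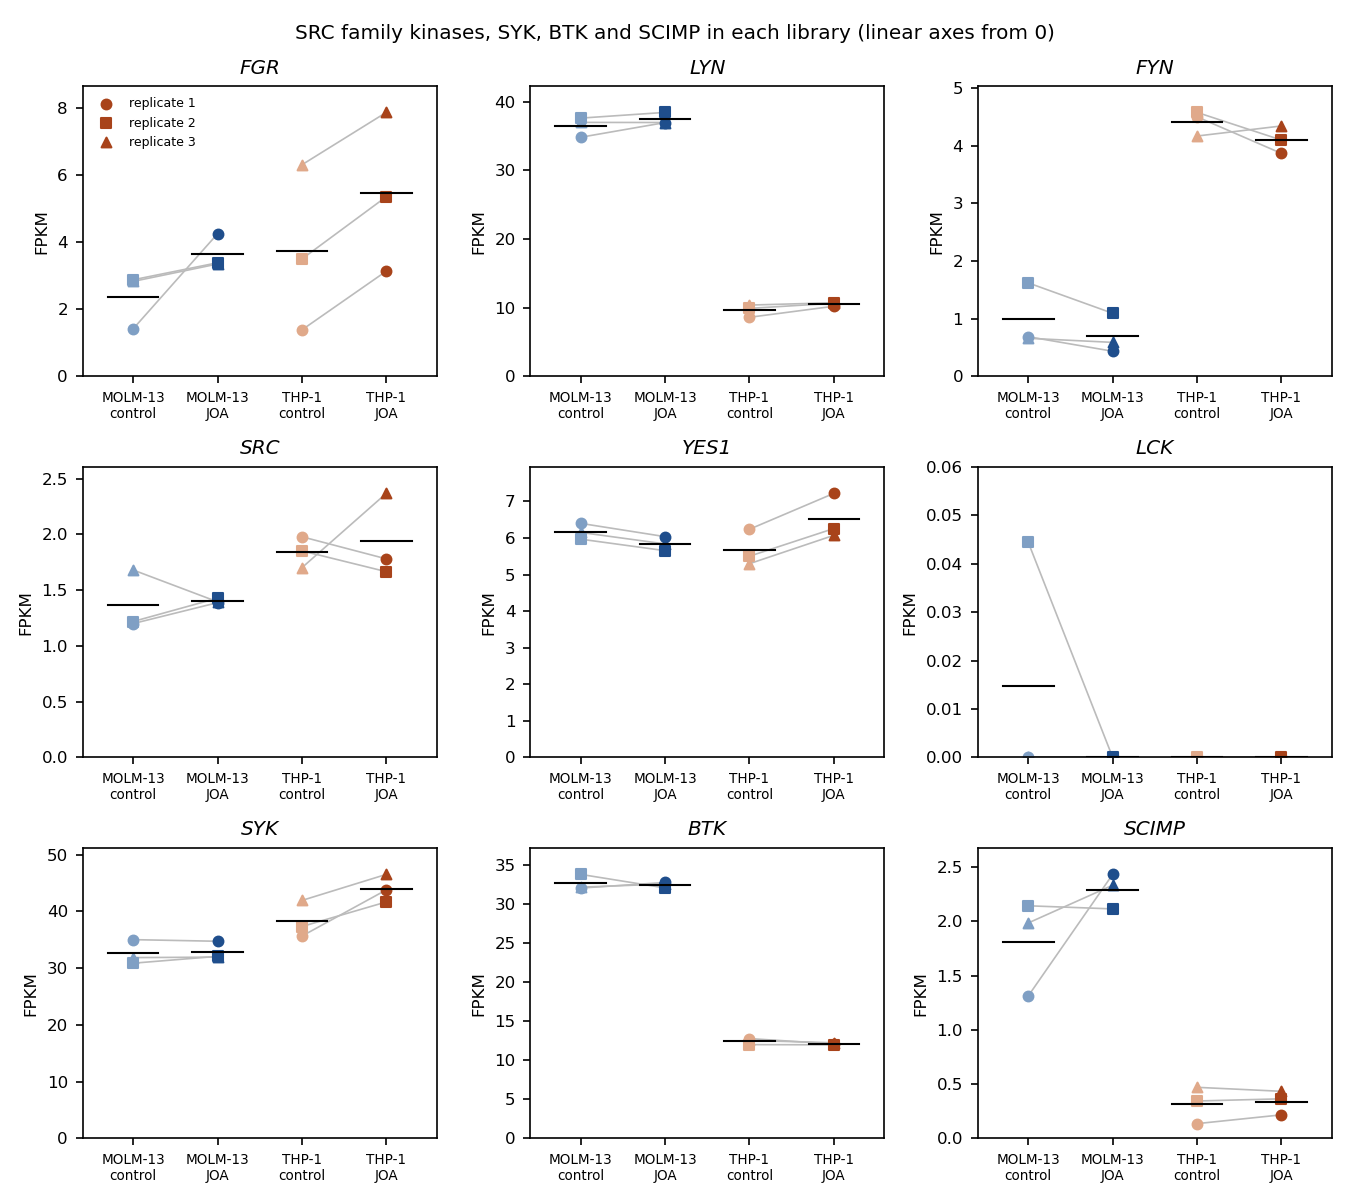
FPKM of the 9 genes in each of the 12 libraries, on linear axes that start at 0. Symbols mark replicate numbers, grey lines join libraries of a line with the same number, and black bars are group means of 3 libraries. LYN, BTK and SCIMP were higher in MOLM-13 and FYN in THP-1, and FGR was higher with JOA in every joined pair.

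LYN, FYN, SCIMP and BTK differed between the lines (controls, THP-1 against MOLM-13). THP-1 cells had less LYN, SCIMP and BTK and more FYN. LYN was at 34.8, 37.6 and 37.0 FPKM in MOLM-13 controls and at 8.60, 9.90 and 10.4 FPKM in THP-1 controls. The groups did not overlap (log2 fold change −1.91, SE 0.08, adjusted p = 3.11e-07, limma). FYN, a broadly expressed kinase, was at 0.687, 1.62 and 0.659 FPKM in MOLM-13 and at 4.50, 4.58 and 4.17 FPKM in THP-1 (log2 fold change 2.16, SE 0.29, adjusted p = 2.09e-04). All THP-1 libraries lay above the highest MOLM-13 library. SCIMP was at 1.31, 2.14 and 1.99 FPKM in MOLM-13 and at 0.135, 0.344 and 0.470 FPKM in THP-1 (log2 fold change −2.26, SE 0.33, adjusted p = 3.35e-04). BTK was at 32.0, 33.8 and 32.1 FPKM in MOLM-13 and at 12.8, 12.0 and 12.5 FPKM in THP-1 (log2 fold change −1.39, SE 0.06, adjusted p = 2.92e-07). LYN, the kinase, and SCIMP, the adaptor that scaffolds it, were both lower in THP-1.

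SYK was one of the most abundant members in both lines, and the difference between the lines was small. It was at 35.0, 30.9 and 31.9 FPKM in MOLM-13 and at 35.7, 37.3 and 41.9 FPKM in THP-1 controls, without overlap (log2 fold change 0.23, SE 0.08, adjusted p = 0.0286), below the fold needed for a call (0.58 on the log2 scale). SRC was likewise higher in THP-1 by less than that fold (1.20 to 1.68 against 1.70 to 1.98 FPKM, log2 fold change 0.42, SE 0.15, adjusted p = 0.0315). FGR (log2 fold change 0.46, 95% interval −0.69 to 1.60, adjusted p = 0.430) and YES1 (−0.12, interval −0.32 to 0.07, adjusted p = 0.227) overlapped between the lines. The value of FGR rested on single libraries, since it was 1.02 (adjusted p = 0.0365) without THP-1 control replicate 1 and −0.03 without THP-1 control replicate 3. A call needed an adjusted p under 0.05 and that fold. Of the 8 members tested, 4 were called (1 higher and 3 lower in THP-1), beside 44% of all 12635 genes, so the share of members is near the background. An unadjusted limma p under 0.05 was found for 6 of the 8 members and for 9266 of the 12635 genes. A small p alone, as for SYK and SRC, was thus common between the lines. LCK was listed at 0 in 11 of 12 libraries and at 0.0444 FPKM in MOLM-13 control replicate 2, and was not tested.

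Per length, the order of the members in MOLM-13 controls was LYN (36.5 ± 1.46 FPKM, SD, n = 3), BTK (32.7 ± 0.978), SYK (32.6 ± 2.17), YES1 (6.17 ± 0.217), FGR (2.38 ± 0.831), SCIMP (1.81 ± 0.441), SRC (1.37 ± 0.272), FYN (0.989 ± 0.547) and LCK. BTK and SYK did not differ beyond their spread, and neither did neighbours from FGR to FYN. In THP-1 controls the order was SYK (38.3 ± 3.25 FPKM), BTK (12.4 ± 0.395), LYN (9.62 ± 0.921), YES1 (5.68 ± 0.496), FYN (4.41 ± 0.218), FGR (3.73 ± 2.47), SRC (1.84 ± 0.139), SCIMP (0.316 ± 0.169) and LCK. FGR overlapped with YES1, FYN and SRC there. The ratio of SYK to BTK was 3.08 ± 0.278 in THP-1 and 1.00 ± 0.0901 in MOLM-13 controls.

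LYN, YES1, FYN, FGR, SRC and LCK, the 6 members that belong to the SRC family, summed to 47.4 ± 2.54 FPKM in MOLM-13 and 25.3 ± 2.58 FPKM in THP-1 controls (n = 3). Shares are given among these 6 only. LYN made up 77.0 ± 1.06% of the sum in MOLM-13 and 38.1 ± 0.921% in THP-1. YES1 held 13.1 ± 1.18% and 22.7 ± 4.33%, and FYN 2.06 ± 1.06% and 17.6 ± 2.46%. FGR made up 4.96 ± 1.54% and 14.2 ± 8.29%. With JOA the sums were 49.1 ± 0.931 and 28.5 ± 2.62 FPKM, and FGR made up 7.47 ± 1.04% and 18.7 ± 6.58%. In THP-1 its share ranged from 6.10% in control replicate 1 to 25.1% in JOA replicate 3.

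**Figure D2:**
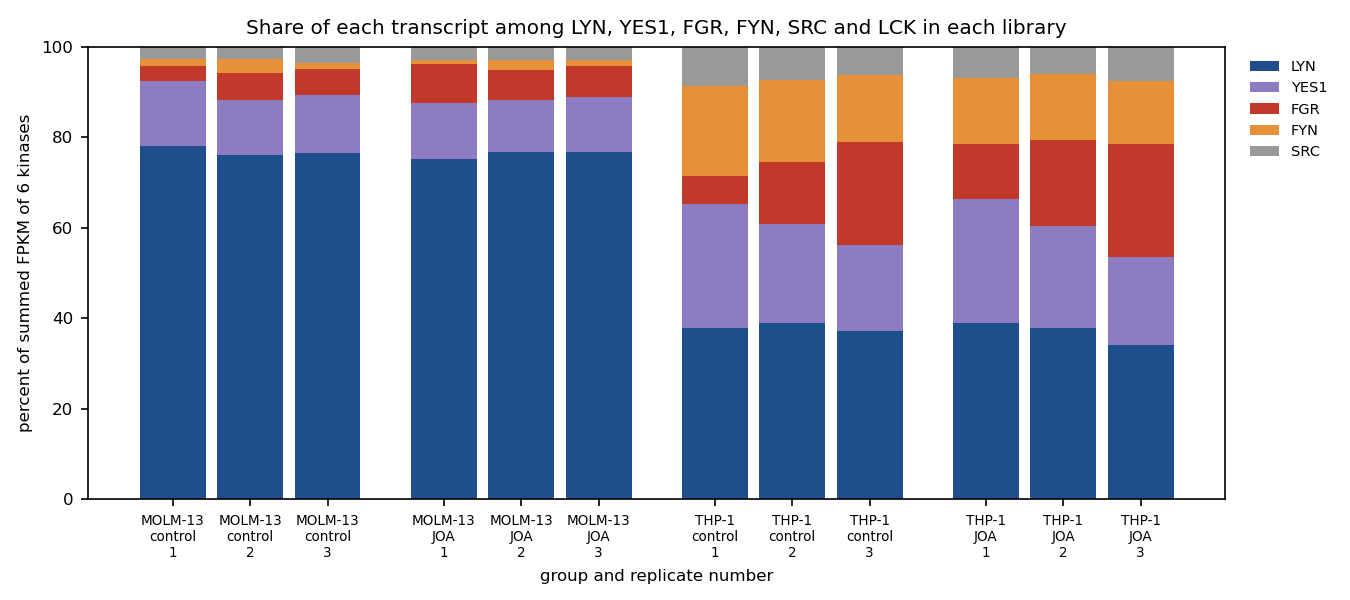
Percent of the summed FPKM of LYN, YES1, FGR, FYN, SRC and LCK held by each of them in each library. LCK is in the sum but is too low to be seen. LYN fills 75.3% to 78.2% of the bars of MOLM-13 and 34.2% to 39.1% of those of THP-1, and FGR fills 6.10% to 25.1% in THP-1.

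On the log2 scale, FGR was the tested member with the largest difference between JOA and control in both lines. In MOLM-13, FGR was at 1.42, 2.88 and 2.83 FPKM in controls and at 4.25, 3.39 and 3.35 FPKM with JOA. All 3 JOA libraries lay above all 3 controls (log2 fold change 0.66, SE 0.25, unadjusted p = 0.0273, adjusted p = 1.00, limma). Groups that did not overlap were found for 9.65% of all genes in MOLM-13, and the smallest p that an exact permutation test of 3 against 3 libraries allows is 0.1. The same-numbered ratios were 3.00, 1.18 and 1.18, so replicate 1 gave most of the difference. Without control replicate 1 the log2 fold change was 0.34 (adjusted p = 0.866).

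In THP-1, FGR was at 1.38, 3.50 and 6.31 FPKM in controls and at 3.14, 5.36 and 7.88 FPKM with JOA. The groups overlapped and libraries of a group differed more than the arms did, but JOA was higher in each same-numbered pair, with ratios of 2.27, 1.53 and 1.25. Without the replicate number the log2 fold change was 0.68 (SE 0.52, adjusted p = 0.554). With the number as a block the SE was 0.14 and FGR rose (adjusted p = 0.0317), the sole member called with the block, beside 1.27% of 12712 genes. The labels do not state a pairing by number, which was inferred from these same data. With the block and without pair 1 the log2 fold change was 0.46 (adjusted p = 0.0177), below the fold needed for a call. Without pair 2 it was 0.72 (adjusted p = 0.0273) and without pair 3 it was 0.86 (adjusted p = 6.47e-03). Without the block, the value ranged from 0.12 without control replicate 1 to 1.17 without control replicate 3. The SD of log2 FPKM of FGR exceeded that of 99.9% of 10082 genes in THP-1 controls and of 99.1% of 9685 genes in MOLM-13 controls.

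Myeloid markers also differed between replicates and arms. ITGAM, which encodes CD11b, was at 2.27, 3.14 and 3.21 FPKM in MOLM-13 controls and at 4.20, 3.63 and 3.50 FPKM with JOA. In THP-1 it was at 2.81, 4.43 and 4.58 FPKM in controls and at 6.77, 6.47 and 5.94 FPKM with JOA. Its order of replicates was that of FGR in MOLM-13 with JOA and in THP-1 controls, nearly so in MOLM-13 controls, where replicate 1 was the lowest for both genes, and opposite to that of FGR in THP-1 with JOA. CD14 was at 0.202, 0.601 and 0.840 FPKM in THP-1 controls and at 0.369, 0.587 and 0.978 FPKM with JOA, in the same order of replicates as FGR. In MOLM-13, CD14 was at 0.0913, 0.0743 and 0.265 FPKM in controls and at 0.159, 0.104 and 0.231 FPKM with JOA. That order differed from that of FGR in both arms, and all CD14 values were low. In MOLM-13, 6 of the 10 myeloid markers were higher with JOA in 3 of 3 pairs (CD33, LYZ, CSF1R, ITGAM, CEBPA and ELANE), and 1 was lower (MPO). Over all genes in MOLM-13, 18.5% were higher and 15.7% lower in 3 of 3 pairs. In THP-1, 3 markers were higher in 3 of 3 pairs (SPI1, CD33 and ITGAM) and 4 lower (MPO, CSF1R, FLT3 and ELANE). Over all genes in THP-1 the shares were 29.3% and 19.4%, so the share of markers that were higher is near the background. MPO, a granule enzyme of immature myeloid cells, was lower in every pair of both lines, with means of 20.6 FPKM in controls and 18.7 FPKM with JOA in MOLM-13. In THP-1 it was at 28.3, 19.1 and 13.2 FPKM in controls and 18.5, 13.2 and 7.68 FPKM with JOA, the reverse of the order of FGR. ELANE did not share this pattern. It was higher with JOA in every MOLM-13 pair (means of 317 FPKM in controls and 369 FPKM with JOA). In THP-1 it was lower in every pair (561 and 496 FPKM). The summed level of the 10 myeloid markers, led by LYZ, was 2528 to 3839 FPKM in MOLM-13 controls and 3088 to 4167 with JOA, and 1675 to 2205 in THP-1 controls and 1599 to 1875 with JOA. Their part in the FGR values was not tested. More cells with high FGR and more FGR RNA per cell cannot be told apart in these bulk libraries.

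SYK was steady in MOLM-13 and slightly higher with JOA in THP-1. In MOLM-13 it was at 34.7, 32.1 and 32.0 FPKM with JOA, inside the range of its controls (log2 fold change 0.02, 95% interval −0.14 to 0.17, adjusted p = 1.00). In THP-1 it was at 43.8, 41.7 and 46.5 FPKM with JOA against 35.7, 37.3 and 41.9 FPKM in controls. The arms overlapped by 1 control, and all pairs were higher, with ratios of 1.23, 1.12 and 1.11. The log2 fold change was 0.20 (SE 0.07, adjusted p = 0.218). With the block the adjusted p was 0.0409, at a fold too small for a call. Without pair 1 it was 0.0429, without pair 2 it was 0.114 and without pair 3 it was 0.0665.

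YES1, a broadly expressed SRC family kinase, had pair ratios that were nearly equal within a line. In MOLM-13 it was at 6.40, 5.97 and 6.15 FPKM in controls and at 6.04, 5.65 and 5.84 FPKM with JOA, with ratios of 0.943, 0.947 and 0.949. In THP-1 it was at 6.24, 5.50 and 5.30 FPKM in controls and at 7.22, 6.26 and 6.07 FPKM with JOA, with ratios of 1.16, 1.14 and 1.15. All 3 pairs were lower in MOLM-13 and higher in THP-1. Neither line passed the test (log2 fold change −0.08, adjusted p = 1.00 and 0.19, adjusted p = 0.338; with the block 0.645 and 0.0741). The difference between the lines was 0.27 (SE 0.11, unadjusted p = 0.0349, adjusted p = 0.643, with the block 0.137) and did not pass either.

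The other members gave no call. LYN was at 37.0, 38.5 and 37.0 FPKM with JOA in MOLM-13 (log2 fold change 0.04, interval −0.09 to 0.17) and at 10.2, 10.7 and 10.7 FPKM in THP-1 (0.13, interval −0.05 to 0.31). BTK was at 32.7, 32.1 and 32.6 FPKM in MOLM-13 (−0.01, interval −0.13 to 0.12) and at 12.1, 12.0 and 12.2 FPKM in THP-1 (−0.04, interval −0.16 to 0.08), the narrowest intervals among the members. FYN in MOLM-13 was at 0.435, 1.09 and 0.589 FPKM with JOA, lower in 3 of 3 pairs, with replicate 2 high in both arms. Its log2 fold change was −0.41 (SE 0.38, adjusted p = 1.00, with the block 0.388), and leaving out a library moved it from −0.024 (without control replicate 2) to −0.73 (without JOA replicate 2). In THP-1 FYN was at 3.87, 4.10 and 4.34 FPKM with JOA (−0.10, interval −0.28 to 0.07). SRC was at 1.39, 1.43 and 1.40 FPKM with JOA in MOLM-13 (0.05, interval −0.27 to 0.37) and at 1.78, 1.67 and 2.37 FPKM in THP-1 (0.05, interval −0.27 to 0.38). SCIMP was at 2.43, 2.11 and 2.33 FPKM with JOA in MOLM-13 (0.35, interval −0.04 to 0.74, adjusted p = 1.00) and at 0.216, 0.364 and 0.433 FPKM in THP-1 (0.13, interval −0.67 to 0.94). Without control replicate 1 the SCIMP value in MOLM-13 was 0.14.

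In MOLM-13, limma called 0 of 8 members, beside 0% of 11693 genes. At an unadjusted p under 0.05 there was 1 member (FGR), beside 4.11% of genes, and with the block there were 2 (FGR and FYN), beside 11.1%. In THP-1 it called 0 of 8, beside 0.134% of genes, and 1 member (SYK) had an unadjusted p under 0.05, beside 16.9%, or 3 with the block (FGR, YES1 and SYK), beside 26%. Higher in 3 of 3 pairs were 1 of 8 members in MOLM-13, beside 18.5% of genes, and 4 of 8 in THP-1 (FGR, LYN, YES1 and SYK), beside 29.3%. Lower in 3 of 3 pairs were 2 in MOLM-13 (FYN and YES1), beside 15.7%, and 1 in THP-1 (BTK), beside 19.4%. The difference between the lines in the JOA response was called for 0 of 8 members, beside 0% of 12626 genes, with 1 (YES1) at an unadjusted p under 0.05, beside 7.24%. For FGR it was 0.02 with a 95% interval of −1.41 to 1.45, so a large difference in either direction is within the interval.

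**Figure D3:**
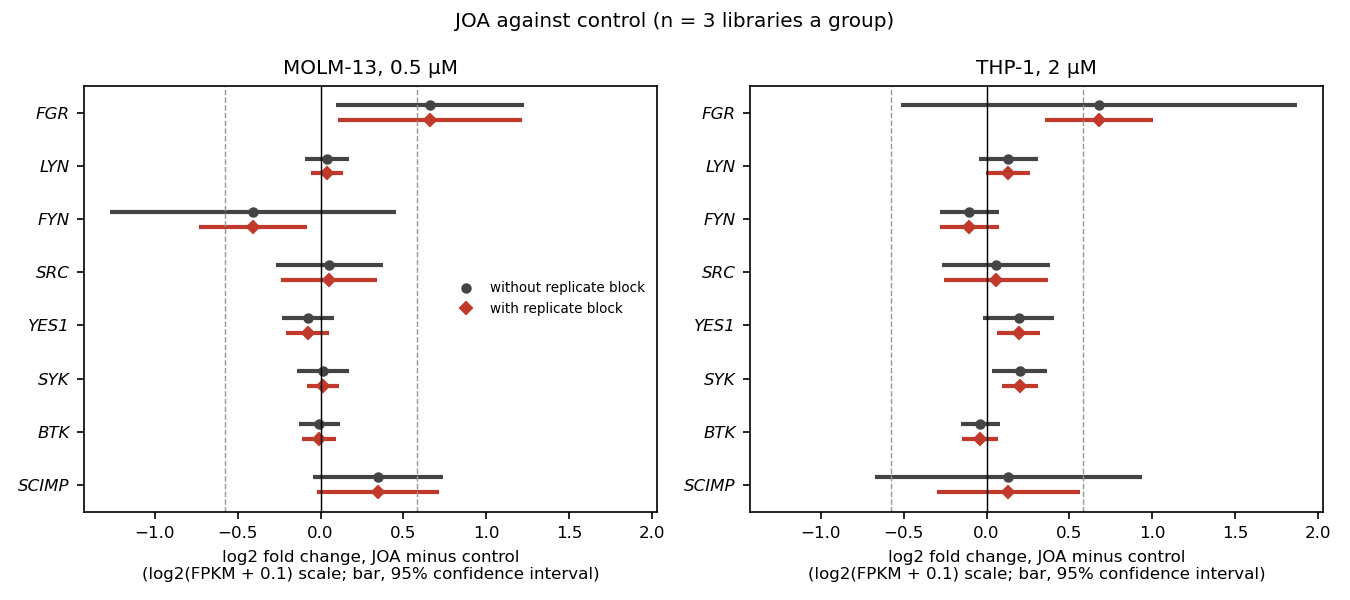
Log2 fold change of 8 members (JOA minus control, log2(FPKM + 0.1) scale) with 95% confidence intervals, fitted without (grey) and with (red) the replicate number as a block. Dashed lines mark 0.58 on either side of 0. In THP-1 the interval of FGR spans 0 without the block and lies above 0 with it.

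The genes whose values followed each member most closely were taken from 9239 genes with a mean of at least 1 FPKM in both lines, by Pearson r of log2 values centred within each line. The points are 12 libraries, which share replicate numbers and treatment, and r is a description. FGR was followed by PSAP (r = 0.979), ANGEL1 (0.973) and GRN (0.969). PSAP and GRN encode the lysosomal precursors prosaposin and progranulin. LYN was followed by DVL3 (0.968), CCR1 (0.959) and ITGAX (0.959), and r between LYN and FGR was 0.895. SYK was followed by ATP6AP2 (0.948) and ZDHHC3 (0.941). YES1 was followed by PRC1 (0.942), RAD54L (0.937) and AIFM1 (0.927), of which PRC1 acts in cytokinesis and RAD54L in recombination. Values for SRC were lower, led by SLC25A25 (0.893), AASDH (0.826) and ARL15 (0.818), and so were those for BTK, led by PARS2 (0.825), SENP6 (0.816) and RSL1D1 (0.809).

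The 96 other genes of the pathway were grouped by role. In MOLM-13 with JOA, limma called 0 of 83 tested, beside 0% of all genes, with 6 at an unadjusted p under 0.05, beside 4.11% of all genes, or 16 with the block, beside 11.1%. All 9 ITAM receptors and adaptors tested had a log2 fold change above 0 (median 0.11) and 13 of 15 ITIM receptors did (median 0.14), against a median of 0.01 over all genes. These counts by sign were not tested. At an unadjusted p under 0.05 were 1 of the 9 and 1 of the 15, or 1 and 6 with the block. TREM2, an ITAM-coupled receptor, was at 4.39, 5.43 and 4.16 FPKM in controls and 6.97, 5.67 and 5.61 FPKM with JOA (log2 fold change 0.38, adjusted p = 1.00). FES, a cytoplasmic tyrosine kinase of myeloid cells, was at 25.1, 26.1 and 24.7 FPKM in controls and 36.1, 30.8 and 29.8 FPKM with JOA (0.34, adjusted p = 1.00). LIME1 (0.22), LAIR1 (0.18) and NFATC2 (−0.21) also had arms that did not overlap. Of the 83 tested, 7 were higher and 2 lower without overlap, beside 9.65% of all genes, a share near that background. For LAIR1 the highest control was at 53.7 and the lowest JOA library at 53.9 FPKM, and the log2 fold change was 0.06 without control replicate 1.

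In THP-1 with JOA, 1 of 80 pathway genes was called, beside 0.134% of all genes. SLA2, an adaptor that restrains receptor signalling, fell from 0.829, 0.825 and 1.08 FPKM to 0.340, 0.344 and 0.386 FPKM (log2 fold change −1.14, SE 0.15, adjusted p = 0.0394). Leaving out any library raised its adjusted p to between 0.0754 and 0.217. SKAP2, an adaptor of SRC family kinases in myeloid cells, was at 6.13, 6.11 and 5.71 FPKM in controls and 9.61, 8.77 and 8.48 FPKM with JOA. Its log2 fold change of 0.57 (SE 0.07, adjusted p = 0.0394) lay just under the fold needed, and leaving out any library raised the adjusted p to between 0.0708 and 0.217. FCAR (0.71, adjusted p = 0.168), CD79A (−0.56, adjusted p = 0.224) and PTPN18 (0.44, adjusted p = 0.101) had arms that did not overlap, which 23.4% of all genes had. Of the 80 pathway genes, 15 were higher and 3 lower without overlap, a share near that background. For CD79A the highest JOA library was at 0.5536 and the lowest control at 0.5546 FPKM.

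With the block and the adjusted p alone, 10 pathway genes were higher and 2 lower in THP-1, beside 5.37% and 2.69% of all genes. This rule was added after the values were seen. Higher were the ITAM adaptor FCER1G (125, 120 and 106 FPKM in controls and 154, 127 and 137 FPKM with JOA, log2 fold change 0.25), the IgG receptor FCGR1A (0.23), the ITIM receptors CD300A (0.54), CD33 (0.29) and PECAM1 (0.35), the phosphatases PTPN18 (0.44) and PTPRJ (0.39), and the adaptors LAT (0.34), LAT2 (0.36) and SKAP2 (0.57). Lower were SLA2 and MATK (−0.34), a kinase that phosphorylates the inhibitory tail tyrosine of SRC family kinases. Their adjusted p ranged from 6.59e-03 for SKAP2 to 0.0467 for PECAM1. Without the block the adjusted p of these genes other than SLA2 and SKAP2 was between 0.0877 and 0.340. Above 0 were 9 of 10 ITAM receptors and adaptors (median 0.17) and 9 of 11 ITIM receptors (median 0.24), against a median of 0.02 over all genes, and 8 of 11 other tyrosine kinases lay below 0 (median −0.09). These counts by sign were not tested.

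**Figure D4:**
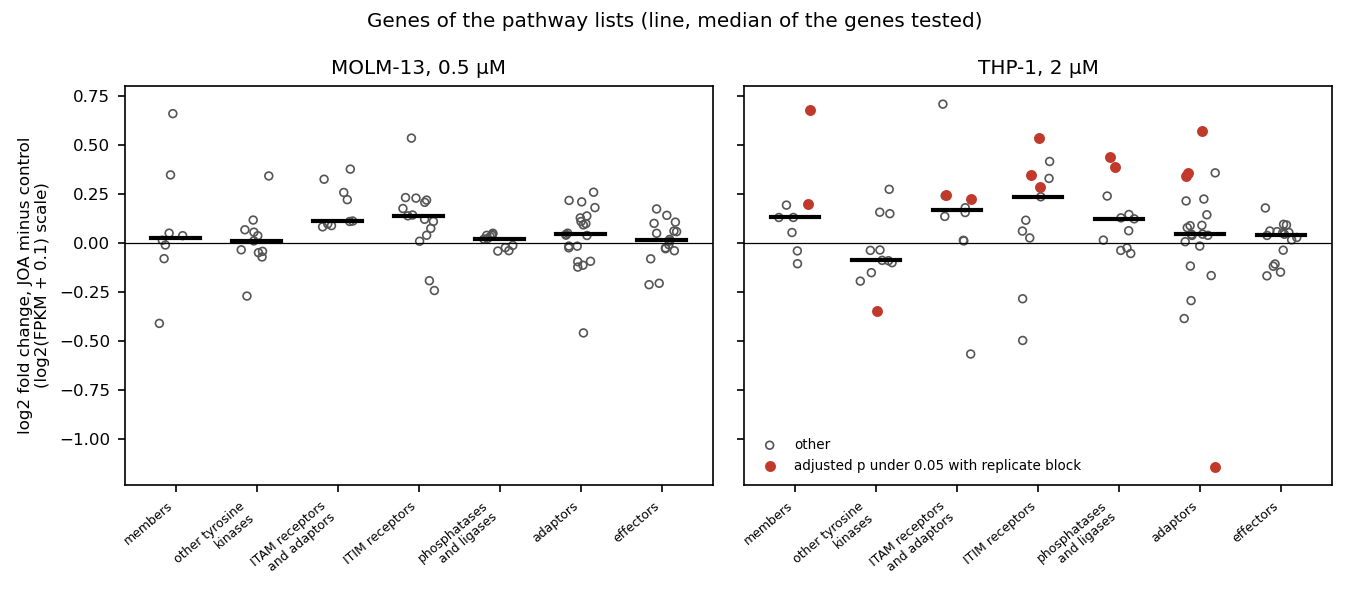
Log2 fold change (JOA minus control, log2(FPKM + 0.1) scale) of the members and of 6 lists of pathway genes in MOLM-13 and THP-1. Each point is a gene, horizontal lines are list medians, and red points have an adjusted p under 0.05 with the replicate block, found in THP-1 and not in MOLM-13.

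Between control lines, 45 of 84 pathway genes were called (20 higher and 25 lower in THP-1), beside 25% and 19% of all genes. Of 10 ITAM receptors and adaptors, 7 were higher and 0 lower, led by CD79B (0.142 against 8.75 FPKM in MOLM-13 and THP-1 means), FCER1G (7.91 against 117 FPKM) and TREM2 (4.66 against 30.3 FPKM). Of 14 ITIM receptors, 8 were lower and 2 higher, led by CD300A (12.2 against 1.93 FPKM), SIGLEC7 (2.47 against 0.365 FPKM) and SIGLEC9 (0.473 against 0.0404 FPKM). Among 11 other tyrosine kinases, 6 were lower, PTK2 (2.02 against 0.131 FPKM) and PTK2B (52.2 against 17.2 FPKM) among them, and FER was higher (0.212 against 0.844 FPKM). PTPN6, which encodes the phosphatase SHP-1, was lower (76.5 against 39.3 FPKM), as was PTPN22 (4.07 against 2.64 FPKM), and the ubiquitin ligase CBL was higher (11.4 against 20.8 FPKM). Among adaptors, DOK3 (1.72 against 14.1 FPKM) and LAT (1.24 against 5.84 FPKM) were higher and PAG1, which recruits CSK to the membrane, was lower (11.5 against 2.57 FPKM). Among effectors, CARD9, an adaptor downstream of SYK (2.02 against 10.9 FPKM), PLCG1 (4.13 against 10.1 FPKM) and VAV3 (1.97 against 4.03 FPKM) were higher. All of these had an adjusted p of 7.66e-04 or less. PTPN22 (log2 fold change −0.61) lay close to the fold needed and was not called without THP-1 control replicate 2 (−0.53), on TPM scaling (−0.54) or with a pseudocount of 1 (−0.48), and SIGLEC9 was not called with that pseudocount (−0.50).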

How the data were processed

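Stranded mRNA libraries of 12 samples were sequenced as paired-end reads. Levels were deposited by the authors as FPKM, for each gene in each library, without a further scaling that is stated. Per the labels, the submitters' processing notes name hg38, Trimmomatic, HISAT2, Cufflinks and HTSeq, without versions. Values below 0.1 FPKM gave no common step (the most common ratio between 2 libraries, within 0.1%, was shared by 7 to 23 of 1335 to 1470 genes), so read depth could not be recovered and precision rests on 3 libraries per group. Groups and replicate numbers came from the labels. No sample or column was left out.

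FPKM is not a count, so JOA and control were compared by limma 3.58.1 in R 4.3.3 on log2(FPKM + 0.1), with a mean-variance trend, over genes with a mean of at least 0.1 FPKM, in place of the authors' count test. This scale understates changes of low genes. P-values were two-sided and Benjamini-Hochberg adjusted over all genes tested, and calls needed an adjusted p under 0.05 and a log2 fold change of 0.58 in size. The lines' responses were compared by an interaction term over 12 libraries. The replicate number was also fitted as a block. Deviations of same-numbered libraries correlated by 0.407 to 0.580 in MOLM-13 and 0.297 to 0.541 in THP-1. Between control lines they correlated by 0.0757 to 0.180, and the numbers were not taken as pairs there. Neither the labels nor the study's methods state a pairing. Pairs of control and JOA within a line were inferred from these correlations in the same data, and results with the block rest on that inference. Alternatives were pseudocounts, filters, scalings, the block, a fit over 12 libraries, no trend and leaving out libraries. The fits were also run on simulated data with normal noise. Changes larger than any JOA change of a member were planted there, only in genes well above the filter. That run therefore does not show how the fits treat small changes or members at low levels.

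The members, lists and motifs were chosen with earlier results of these data known. Named genes were the 9 members, pathway genes called with JOA with or without the block, the 5 with the largest change without overlap per line, the 3 largest called per list between lines, and the 3 genes most alike to each member with a mean of at least 1 FPKM in both lines, and some of the genes so named are not reported here. Positions are from GENCODE on GRCh38 and promoter windows from RefSeq (GRCh38.p14). Figures were drawn with matplotlib 3.10.9 in Python 3.11.15.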

Additional observations from a re-analysis of the deposited data

How the results depend on the processing

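Over the members, 32 results were refitted under 566 alternatives. Direction and side of the threshold held in 528, 4 FGR values passed the threshold that their main value missed, and 34 changed sign, none of them called. In THP-1 the replicate block called 1 member (FGR), as did the block without pair 2 (1 member) and without pair 3 (1 member), but not without pair 1; these fits without pairs were chosen after the results were seen. Between control lines FGR ranged from −0.034 to 1.02 (log2) when a library was left out, and was called without THP-1 control replicate 1. The block changed no other call of a member.

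The sign changes concern values near 0 or low levels. When a library was left out, JOA minus control in MOLM-13 ranged from −0.027 to 0.20 for SRC, −0.023 to 0.069 for SYK and −0.022 to 0.016 for BTK, and in THP-1 from −0.23 to 0.40 for SCIMP and −0.091 to 0.15 for SRC. With the block and a pair left out, SRC in MOLM-13 was −0.020 (pair 1) and −0.029 (pair 2), SYK −0.0041 (pair 2) and BTK 0.025 (pair 2). In THP-1, SCIMP was −0.016 (pair 1) and SRC −0.14 (pair 3). The difference between lines ranged from −0.55 to 0.51 for FGR, −0.080 to 0.63 for FYN, −0.14 to 0.10 for SRC and −0.58 to 0.056 for SCIMP when a library was left out. It was 0.0059 for BTK on TPM scaling and, with median centring, −0.014 for FGR and −0.030 for SRC. The causes were not tested.

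Over all genes, THP-1 calls numbered 17 (7 higher, 10 lower), 18 with median centring (5 higher, 13 lower), 161 with the block, 56 in a fit over 12 libraries, 8 with a pseudocount of 1, 1 without a trend, 0 without a filter and 0 to 1 without a library. SLA2 in THP-1 was called in neither the fit without a filter (adjusted p = 0.0917) nor that without a trend (0.0846), and its log2 fold change was −0.49 with a pseudocount of 1. SKAP2 was called with a pseudocount of 0.01 and on TPM scaling, and its adjusted p rose to 0.0917 without a filter and 0.105 without a trend. TPM scaling moved the median of all genes between control lines from 0.06 to 0.17. Depth is not known, 3 libraries per group limit the precision, and FYN, SCIMP and LCK are at low levels in at least 1 line.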
